A study of Mus musculus with 4 samples.

Results

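The 39 genes of the mouse Hox clusters were followed in single-cell RNA sequencing libraries of C3H 10T1/2 cells, a mouse line of mesenchymal progenitor cells (MPCs). Members were every gene whose symbol reads Hoxa, Hoxb, Hoxc or Hoxd followed by digits only, 39 of the 32285 genes counted. The cells expressed transgenic wild-type histone H3 (H3WT) or H3 with cysteine in place of arginine 26 (H3R26C), and each line received the solvent DMSO or 5-azacytidine (5-Aza), a cytidine analog that inhibits DNA methylation and is used to start differentiation of this line. According to the methods of the study, 5-Aza was given at 3 uM for 24 h and treated cells were collected on day 28. The day on which DMSO cells were collected is not given in the sources used here. Both lines were made by lentiviral transduction and puromycin selection, so the endogenous H3 genes were kept in all 4 libraries, and whether a line descends from 1 clone is not given in the sources used here. The transgene has no feature of its own in the counts, so the labels could not be checked on it.

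Each of the 4 conditions, H3WT DMSO, H3WT 5-Aza, H3R26C DMSO and H3R26C 5-Aza, has 1 library. No test between conditions was therefore possible, and every ratio below compares these libraries. Genotype and treatment cannot be told apart from the culture or the library that carried them. Barcodes with at least 5000 UMIs (unique molecular identifiers, each standing for 1 captured RNA molecule), at least 1500 genes and at most 20% mitochondrial UMIs were kept as cells. This left 22049 of 39891 barcodes, 3710 to 7619 a library, with median depths of 13123 to 22420 UMIs. Libraries of a pair shared 24 to 58 cell barcodes, at most 1.11% of a library. Levels are given as CPM: the UMIs of a gene summed over the kept cells of a library, per 1000000 UMIs of those cells. Their totals ran from 84060490 to 110712425 UMIs. Where a ratio needed it, a count of 0 was set at 3 UMIs, which came to 0.0271 to 0.0357 CPM. The exact 95% upper limit for a count of 0 was 0.0333 to 0.0439 CPM. Intervals are exact 95% Poisson intervals for levels, exact binomial intervals for shares and exact conditional binomial intervals for ratios, and they cover counting error only.

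Hox genes encode homeodomain transcription factors that give cells their position along the body axis, and fibroblasts and other mesenchymal cells keep a Hox pattern of their tissue of origin through long culture. In mammals they lie in 4 clusters, HoxA to HoxD, whose genes fall into 13 paralogue groups numbered from the 3′ end, expressed anteriorly, to the 5′ end, expressed posteriorly. Polycomb complexes hold Hox genes silent, the complex PRC2 through methylation of lysine 27 of H3, the residue next to arginine 26, while trithorax proteins such as Kmt2a keep them active.

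Almost all Hox RNA came from 1 cluster. Over the 4 libraries, the 11 HoxA genes (mm10 chromosome 6, 105 kb) gave 44835 UMIs, the 9 HoxC genes (chromosome 15, 116 kb) 2267, the 10 HoxB genes (chromosome 11, 174 kb) 79 and the 9 HoxD genes (chromosome 2, 96.8 kb) 4. Of the 39 genes, 10 reached a mean of 1 CPM over the libraries, namely Hoxa2, Hoxa3, Hoxa4, Hoxa5, Hoxa6, Hoxa7, Hoxa9, Hoxa10, Hoxc9 and Hoxc13. Another 10 had 0 UMIs in every library, including Hoxa11 and 6 of the 9 HoxD genes, and 5 had 1 to 3 UMIs in all. The remaining 14 members lay between these levels. All Hox genes together stood at 129 CPM in H3WT DMSO, 144 in H3WT 5-Aza, 133 in H3R26C DMSO and 114 in H3R26C 5-Aza. The summed level thus differed little among the libraries, while the make-up of the sum did not stay the same.

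**Figure D1:**
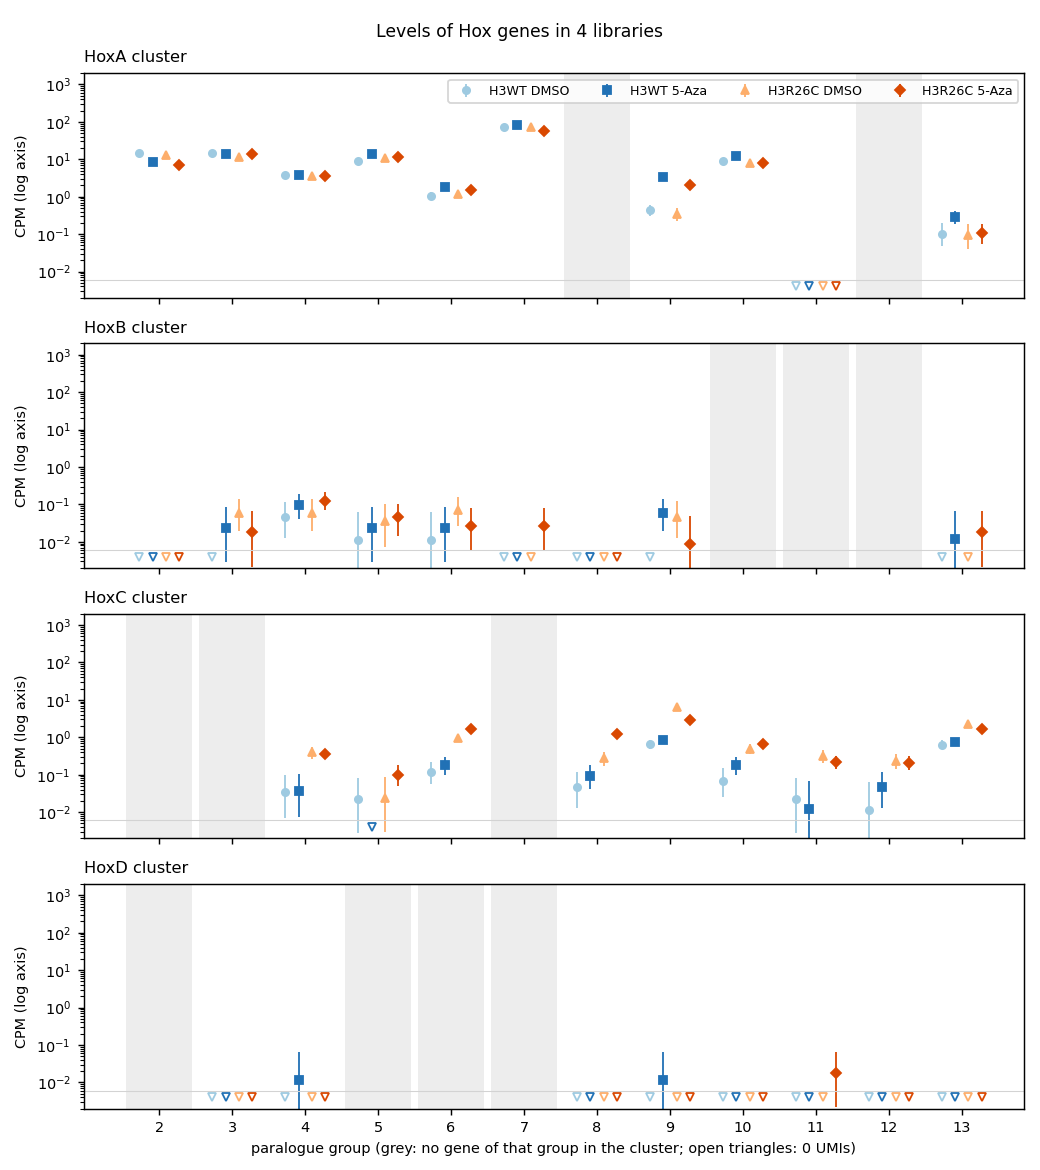
Level of Hox genes of paralogue groups 2 to 13 (vertical log axis, CPM) by group (horizontal axis) in the 4 clusters, with 1 symbol per library and bars for exact 95% Poisson intervals. HoxA genes fill the upper range, HoxC genes of both H3R26C libraries lie above those of both H3WT libraries except at Hoxc5, and HoxD is close to empty.

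Hoxa7, which patterns the trunk, was the leading Hox gene in every library. It stood at 73.1 CPM in H3WT DMSO, 82.2 in H3WT 5-Aza, 72.7 in H3R26C DMSO and 56.1 in H3R26C 5-Aza, which is 49.0% to 57.2% of all Hox UMIs of a library. The antisense gene Hoxaas3 covers 20.4% of the exon bases of Hoxa7. Antisense genes also cover 20.6% of those of Hoxa3 and 16.0% of those of Hoxa4. Whether the counting used strand is not given in the sources used here. The level of Hoxa3, a gene of pharyngeal and thymus development, was 14.8, 14.3, 11.7 and 13.9 CPM in the same order of libraries. Hoxa2, the most anterior member at this height and a gene of hindbrain and branchial arch identity, stood at 14.7, 8.44, 12.9 and 7.23 CPM. For Hoxa5, which acts in lung and cervicothoracic skeleton, the levels were 9.17, 13.8, 10.6 and 11.3 CPM. Hoxa10, a gene of the limb and the uterus, had 9.12, 12.5, 7.88 and 8.23 CPM. Thus the HoxA profile reached from group 2 to group 10, highest at group 7. Divided by kb of exon, the H3WT DMSO levels of Hoxa7, Hoxa2 and Hoxa5 were 25.4, 8.27 and 4.89 CPM per kb. Those of Hoxa10, Hoxa3 and Hoxa4 were 2.79, 2.46 and 2.33 CPM per kb. A UMI stands for a captured RNA molecule whatever its length, so these values do not re-rank the genes and the order by CPM stands.

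Lower HoxA members showed gaps within the cluster. Hoxa4 was level at 3.61 to 3.87 CPM and Hoxa6 lay at 1.06 to 1.79 CPM. Hoxa9, between Hoxa7 and Hoxa10 in the cluster, was at 0.437 CPM in H3WT DMSO and 0.345 CPM in H3R26C DMSO, far under both neighbours. Hoxa11 had 0 UMIs in every library and Hoxa13, the gene of digits and distal limb, 8 to 24 UMIs, so the profile ended at group 10 along the posterior side.

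By paralogue group, summed over the clusters, the libraries differed most in groups 8 and 9 and from 11 to 13. Group 7, which is Hoxa7 and Hoxb7, had 56.1 to 82.2 CPM, nearly all from Hoxa7, and groups 3, 4, 5 and 10 followed their HoxA member. Group 9 had 1.09 CPM in H3WT DMSO, 4.23 in H3WT 5-Aza, 6.66 in H3R26C DMSO and 4.95 in H3R26C 5-Aza. This group took its UMIs from different genes in different libraries, Hoxa9 leading in H3WT 5-Aza and Hoxc9 in both H3R26C libraries. Group 8, which has no HoxA member, had 0.0460, 0.0948, 0.274 and 1.25 CPM, all of it Hoxc8. Groups 11 and 12 stood at 0.0115 to 0.0474 CPM in the H3WT libraries and at 0.208 to 0.309 CPM in the H3R26C libraries. Group 13 had 0.737, 1.07, 2.39 and 1.76 CPM, mostly from Hoxc13. Among the HoxB genes Hoxb4 was the most counted, with 4, 8, 5 and 14 UMIs in the same order, and the cluster summed to 0.0691 CPM in H3WT DMSO and to 0.237 to 0.274 CPM elsewhere. The 4 HoxD UMIs came from Hoxd4, Hoxd9 and Hoxd11, and the posterior HoxD genes of the limb, Hoxd12 and Hoxd13, had none.

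Promoter windows are shown for the leading gene, Hoxa7, for Hoxa2 and Hoxa9, the HoxA genes whose levels with 5-Aza stood farthest below and above DMSO among those of at least 1 CPM, and for Hoxc4, the HoxC gene for which the table of start sites held a window. They run from 250 bases before to 50 bases after a RefSeq start site on GRCm38.p6, written 5′ to 3′ on the strand of the gene, and capitals mark each CG, the dinucleotide in which DNA methylation is placed. Hoxa2 lies at chr6:52164782-52165081 on the minus strand, Hoxa7 at chr6:52218524-52218823 on the minus strand, Hoxa9 at chr6:52227321-52227620 on the minus strand and Hoxc4 at chr15:103034145-103034444 on the plus strand.
Hoxa2: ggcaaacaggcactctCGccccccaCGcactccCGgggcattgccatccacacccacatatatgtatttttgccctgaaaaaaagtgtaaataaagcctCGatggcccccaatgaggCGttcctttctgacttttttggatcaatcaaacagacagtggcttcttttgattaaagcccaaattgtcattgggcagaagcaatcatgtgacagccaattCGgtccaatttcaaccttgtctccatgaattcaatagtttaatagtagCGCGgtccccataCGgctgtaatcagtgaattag
Hoxa7: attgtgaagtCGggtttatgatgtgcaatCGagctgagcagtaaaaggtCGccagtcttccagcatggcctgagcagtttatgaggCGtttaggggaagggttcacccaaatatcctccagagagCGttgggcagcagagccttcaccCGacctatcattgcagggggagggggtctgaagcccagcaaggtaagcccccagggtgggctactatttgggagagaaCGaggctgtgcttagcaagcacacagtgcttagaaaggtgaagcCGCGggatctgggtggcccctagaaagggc
Hoxa9: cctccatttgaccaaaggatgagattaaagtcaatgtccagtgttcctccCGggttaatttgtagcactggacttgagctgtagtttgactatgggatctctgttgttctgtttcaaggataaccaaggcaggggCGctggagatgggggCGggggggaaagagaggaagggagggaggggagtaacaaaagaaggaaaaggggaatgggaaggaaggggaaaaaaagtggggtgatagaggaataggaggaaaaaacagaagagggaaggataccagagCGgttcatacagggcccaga
Hoxc4: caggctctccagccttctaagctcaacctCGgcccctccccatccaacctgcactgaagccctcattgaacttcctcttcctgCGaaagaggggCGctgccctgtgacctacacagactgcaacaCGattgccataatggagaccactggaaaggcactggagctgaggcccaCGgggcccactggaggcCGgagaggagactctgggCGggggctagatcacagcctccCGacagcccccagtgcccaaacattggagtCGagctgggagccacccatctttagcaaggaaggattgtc
Hoxa2, Hoxa7 and Hoxc4 hold 9 CGs each and Hoxa9 holds 4. Over the 24 windows of 22 Hox genes the median was 14.5, against 7 over all 32851 windows, so each window shown was poorer in CG than the typical Hox window. The windows of Hoxa7, Hoxa9 and Hoxc4 lie wholly inside the gene as GENCODE draws it, past its outermost start, so they belong to start sites within the gene. The Hox and Pbx motif TGATNNAT, read on both strands, was in 4 of the Hox windows and in 8.85% of all windows. DNA methylation was not measured in these libraries.

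Transgenic H3R26C was set against H3WT to ask what the mutant histone does to the Hox clusters, first with DMSO. The HoxC genes stood apart. Their summed level was 1.61 CPM (1.36 to 1.90) in H3WT DMSO and 11.2 CPM (10.5 to 12.0) in H3R26C DMSO, a ratio of 6.97 (5.83 to 8.38). With 5-Aza it was 2.18 CPM (1.88 to 2.52) in H3WT and 9.02 CPM (8.47 to 9.60) in H3R26C, a ratio of 4.14 (3.53 to 4.87). HoxC genes made up 1.25% and 1.52% of the Hox UMIs of the H3WT libraries, and 8.42% and 7.89% of those of the H3R26C libraries. HoxA levels moved far less, at 127 CPM in H3WT DMSO against 122 in H3R26C DMSO, a ratio of 0.958 (0.932 to 0.984), and at 141 against 105 CPM with 5-Aza, a ratio of 0.744 (0.725 to 0.763).

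Hoxc9, a gene of thoracic identity, was the HoxC gene with the largest difference in CPM. It had 57 UMIs (0.656 CPM) in H3WT DMSO, 73 (0.865 CPM) in H3WT 5-Aza, 527 (6.27 CPM) in H3R26C DMSO and 325 (2.94 CPM) in H3R26C 5-Aza. Both H3R26C libraries lay above both H3WT libraries, with ratios of 9.55 (7.26 to 12.8) with DMSO and 3.39 (2.62 to 4.43) with 5-Aza. Hoxc13, a gene of hair and nail, lies at the 5′ end of the cluster and had 55 UMIs (0.633 CPM), 65 (0.771 CPM), 193 (2.30 CPM) and 181 (1.63 CPM) in the same order. Its ratios of H3R26C to H3WT were 3.63 (2.68 to 4.99) and 2.12 (1.59 to 2.86).

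The other HoxC genes were under a mean of 1 CPM and are given here outside the rule for named genes, their values having been seen. Hoxc6, a trunk gene, had 10, 15, 78 and 182 UMIs in H3WT DMSO, H3WT 5-Aza, H3R26C DMSO and H3R26C 5-Aza, and Hoxc8, its neighbour in the trunk, 4, 8, 23 and 138. Hoxc10, of the hindlimb and lumbar region, had 6, 15, 42 and 75 UMIs. For Hoxc4, the most anterior HoxC gene, the counts were 3, 3, 33 and 40, with ratios of H3R26C to H3WT of 11.4 (3.57 to 57.9) with DMSO and 10.2 (3.24 to 51.3) with 5-Aza. The posterior genes Hoxc11 and Hoxc12 had 2, 1, 26 and 24 UMIs and 1, 4, 20 and 23 UMIs, with intervals that reached 857 at the upper end because the H3WT counts are so small. Hoxc5 was the exception, with 2, 0, 2 and 11 UMIs, and its annotated exons share bases on the same strand with Hoxc10.

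By direction, all 9 HoxC genes had more CPM in H3R26C than in H3WT under either treatment. Hoxc5 with DMSO, at 2 UMIs in each library, differed by no more than the difference in library size. For the other 8 genes the counting interval of the ratio lay above 1 under either treatment. How many of all genes had more CPM in H3R26C was not counted, so the 9 of 9 has no share to be set beside. By size, among genes with more than 3 UMIs over the libraries, 8 of the 9 HoxC genes were at least 2-fold higher in CPM in H3R26C DMSO than in H3WT DMSO, where 8.88% of all 20310 such genes were. With 5-Aza the count was 9 of 9, against 13.4% of all such genes, with Hoxc5 set against the level of 3 UMIs because H3WT 5-Aza had none. Of the 10 HoxA genes above this count, 0 were at least 2-fold higher with either treatment. HoxB gave 2 of 5, Hoxb5 and Hoxb6, with DMSO, on 1 and 1 UMIs in H3WT against 3 and 6 in H3R26C, and 0 of 5 with 5-Aza. The higher level was thus shared along the HoxC cluster from Hoxc4 to Hoxc13, and the HoxA genes did not show it.

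**Figure D2:**
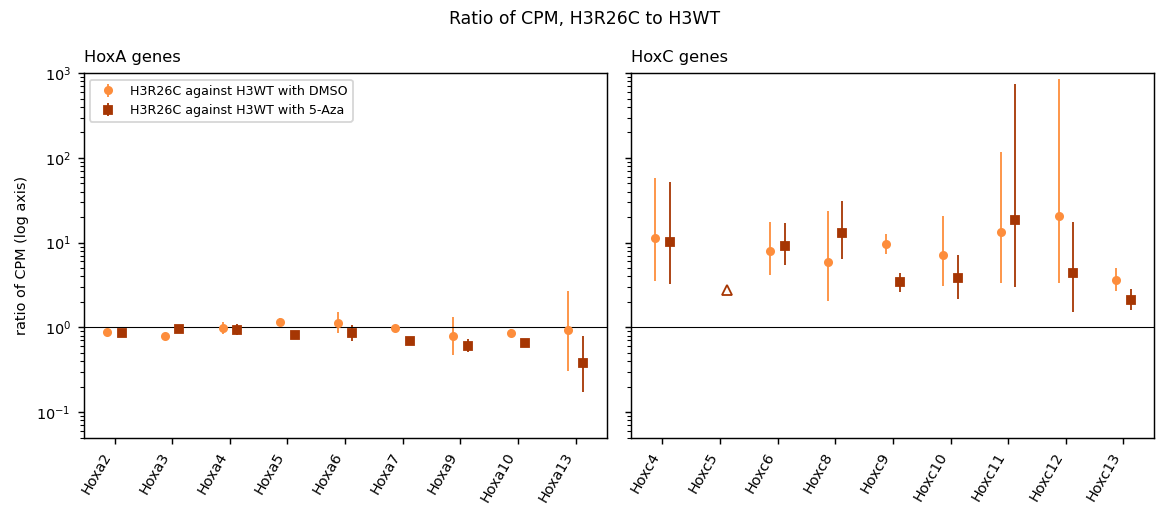
Ratio of CPM in H3R26C to H3WT (vertical log axis) for HoxA genes (left) and HoxC genes (right) with DMSO (circles) and 5-Aza (squares), with exact conditional 95% intervals. The HoxA points lie between 0.381 and 1.16 and the HoxC points between 2.12 and 20.7. Hoxc5 with 5-Aza is an open triangle at 2.79, with its H3WT count of 0 set at 3 UMIs. There is no point for Hoxc5 with DMSO, which had 2 UMIs in each library.

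A stricter size rule, used for all comparisons below, took genes whose mean over the libraries reached 1 CPM and counted those whose log2(CPM + 1) differed by 1 or more between the libraries. The added 1 CPM understates the change of low genes. For H3R26C against H3WT with DMSO, 2 of the 10 Hox genes, Hoxc9 and Hoxc13, were higher by this rule and 0 lower, where 1.82% and 0.577% of 12482 genes were. With 5-Aza 1 of the 10, Hoxc9, was higher and 0 lower, where 4.21% and 2.68% of all genes were. Hoxc9 and Hoxc13 were under 1 CPM in both H3WT libraries, so they reached the minimum only through the H3R26C libraries. The minimum thus favours calls of this direction for such genes, and these counts are a description only. The median difference over the 10 genes on this scale was -0.01 with DMSO and -0.17 with 5-Aza, against 0.03 and -0.03 over all genes.

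The HoxC difference was not the same in all cells. Cells were grouped by their RNA profile, with Hox genes left out, into 10 clusters named here by their 2 leading genes. Only 3 could be given a cell type from markers: Mylpf/Acta1 and Ttn/Neb as skeletal muscle-like and Cfd/Adipoq as adipocyte-like. In the Eln/Colec10 cluster, with 3110 cells of H3WT DMSO and 2110 of H3R26C DMSO, HoxC genes stood at 1.36 and 13.9 CPM, a ratio of 10.2 (8.16 to 12.8). In the Igfbp5/F13a1 cluster the levels were 2.91 and 21 CPM, a ratio of 7.22 (4.31 to 13.1). Cells of the Tmem176b/Cdc20 cluster, whose leading genes include several of mitosis, had 3.12 and 3.93 CPM, a ratio of 1.26 (0.789 to 2.10) that was not separated from 1 by counting error. The H3R26C DMSO library thus held a cluster with HoxC levels close to those of H3WT cells beside clusters with much higher ones. No cell type in these libraries is known to lack Hox RNA, so no background share from free RNA could be given, and the part of free RNA in these levels was not tested. The HoxC share of HoxA and HoxC UMIs was 14.4% (12.9 to 16.0) in Igfbp5/F13a1, 10.2% (9.33 to 11.1) in Eln/Colec10 and 2.95% (2.41 to 3.57) in Tmem176b/Cdc20 cells of H3R26C DMSO. In H3WT DMSO the same clusters gave 2.14%, 1.05% and 2.39%.

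The highest HoxC level was in a cluster that only the H3R26C 5-Aza library held. Its 524 cells, led by Enpp2 and Ly6e, had 34.4 CPM (30.4 to 38.9) of HoxC genes, against 8.41 CPM in Crabp1/Slpi, 12.0 in Igfbp5/F13a1, 11 in Eln/Colec10 and 3.02 in Hist1h2ae/Hist1h1b cells of that library. A cluster held by 1 library may be that library and not a cell type. These cells were 6.88% of the library, and held 25.7% of its HoxC UMIs, 53.6% of its Hoxc8 UMIs, 25.8% of its Hoxc6 UMIs and 5.03% of its HoxA UMIs. HoxC made up 30.5% (27.4 to 33.8) of their HoxA and HoxC UMIs. Without them, the log2 ratio of HoxC in H3R26C against H3WT with 5-Aza was 1.72 in place of 2.05, and Hoxc9 no longer passed the size rule, as it did not in cells thinned to 5000 UMIs. Within shared clusters the ratios with 5-Aza were 5.76 in Eln/Colec10 with 162 H3R26C cells, 5.75 in Igfbp5/F13a1, 2.46 (1.85 to 3.33) in Crabp1/Slpi, 2.70 (0.880 to 13.4) in Hist1h2ae/Hist1h1b and 2.22 (0.839 to 7.40) in the skeletal muscle-like Mylpf/Acta1 cells. The Ttn/Neb cells of H3R26C 5-Aza, 60 in number, had 0 HoxC UMIs.

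**Figure D3:**
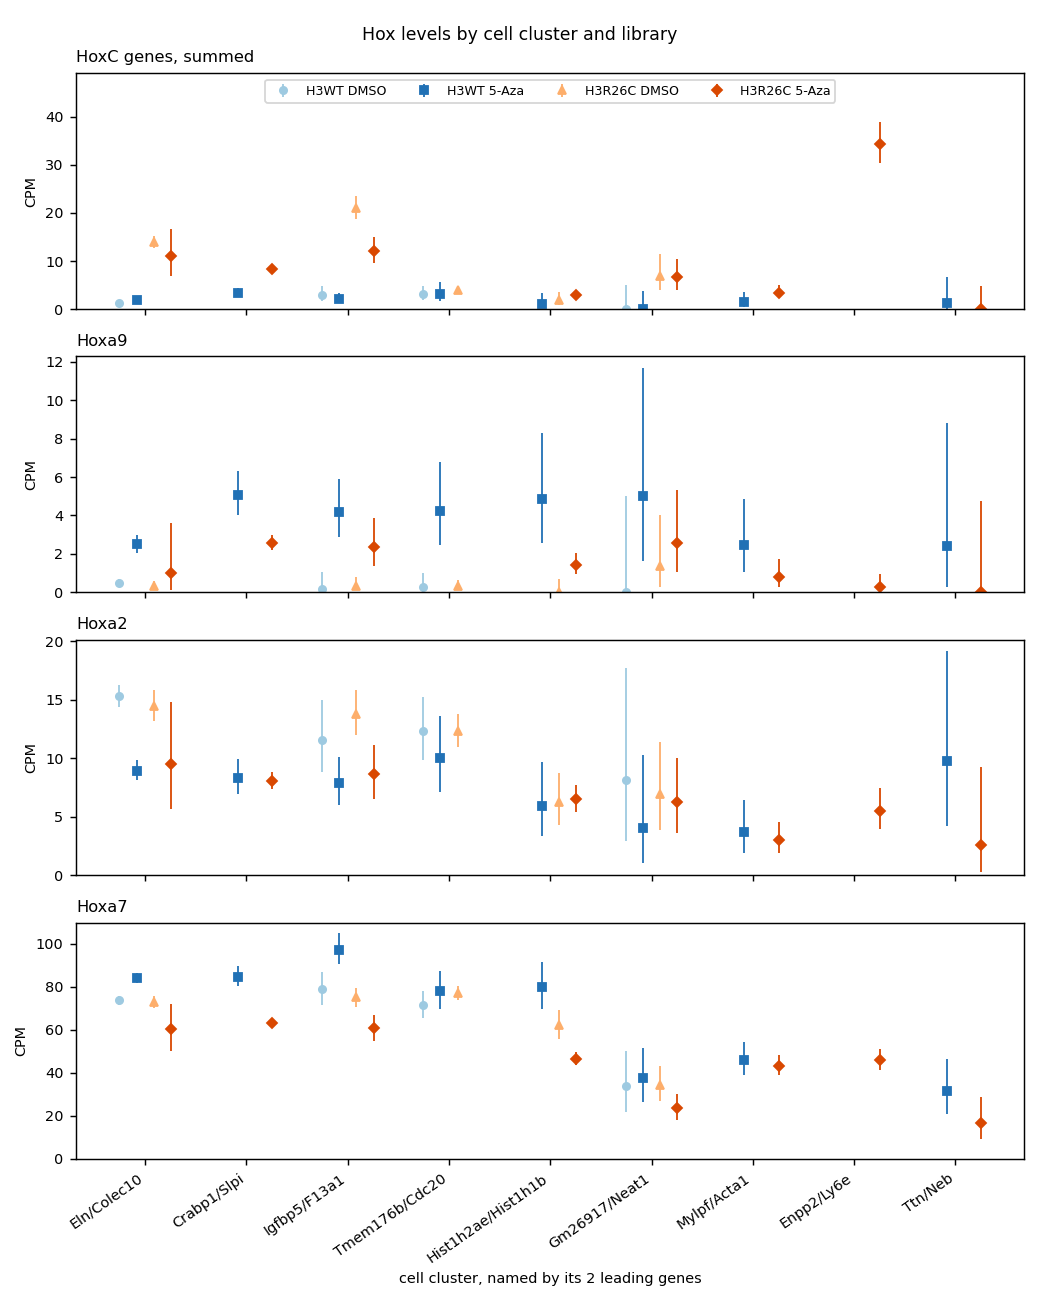
Summed HoxC level and the levels of Hoxa9, Hoxa2 and Hoxa7 (vertical axes, CPM) in each cell cluster with at least 50 cells of a library (horizontal axis), with 1 symbol per library and exact 95% Poisson intervals. HoxC was highest in the Enpp2/Ly6e cells of H3R26C 5-Aza, at 34.4 CPM, and Hoxa9 in H3WT Eln/Colec10 cells stood at 0.492 CPM with DMSO and 2.49 with 5-Aza.

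Single cells carried HoxC RNA at low copy. After each cell was thinned to 5000 UMIs, a HoxC UMI was found in 0.539% and 1.15% of the H3WT cells, with DMSO and with 5-Aza, and in 4.91% and 3.77% of the H3R26C cells. Unthinned, these shares were 2.56%, 2.44%, 13% and 9.41%. For any HoxA gene the thinned shares were 45.5%, 48.8%, 45% and 39.8%, and the unthinned shares 91.2%, 79.3%, 84.1% and 70.6%. At least 2 HoxC UMIs were seen in 226 of the 613 HoxC-positive cells of H3R26C DMSO. HoxC genes tended to be found in the same cells. In H3R26C DMSO, 26.4% (22.1 to 31.0) of the 398 cells with a Hoxc9 UMI also had a UMI of another HoxC gene, against 4.97% (4.34 to 5.66) of the 4329 cells without, at median depths of 16997 and 16539 UMIs. Thinned to 5000 UMIs, the shares were 11.9% (6.98 to 18.7) and 2.13%. In H3R26C 5-Aza the unthinned shares were 34.2% of 278 cells and 5.98% of the rest, and in H3WT DMSO 23.8% of 42 cells and 1.44%. Thinned, H3R26C 5-Aza gave 14.4% of 97 cells against 2.53%, and H3WT DMSO 0 of 11 cells (0 to 28.5%) against 0.243%, too few cells to show a difference. Hoxa7 did not separate these cells, being found in 71.6% of cells with and 67.3% of cells without a Hoxc9 UMI in H3R26C DMSO. Cells of a library share its culture, so these shares are a description of the library. HoxC levels were unequal among the cell clusters, and co-detection within clusters was not tested.

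**Figure D4:**
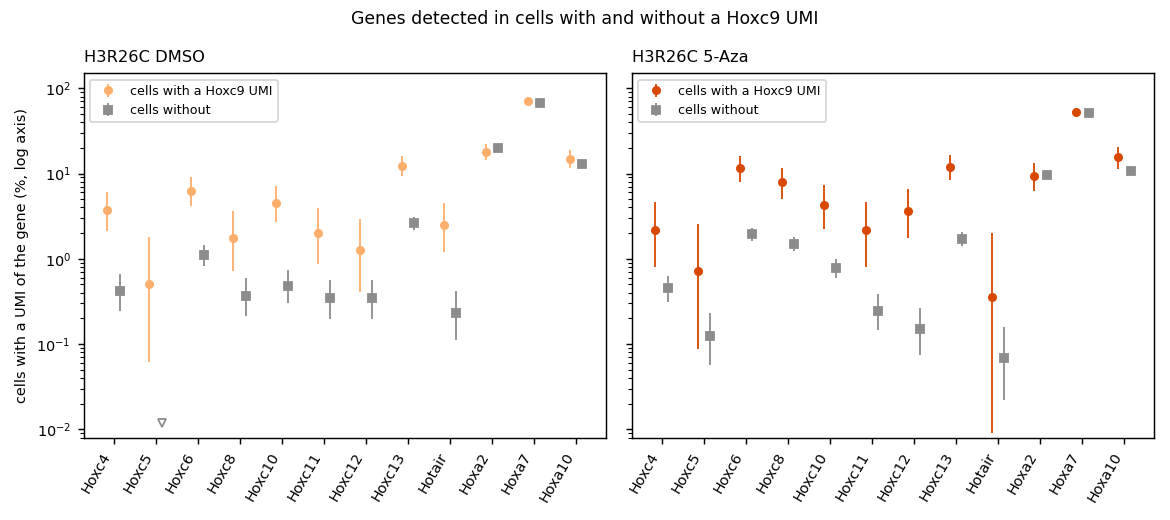
Share of cells with a UMI of the named gene (vertical log axis, percent) among cells with a Hoxc9 UMI (circles) and without one (squares) in the 2 H3R26C libraries, with exact binomial 95% intervals and open triangles for a share of 0. The HoxC genes are found more often in cells with a Hoxc9 UMI, for Hoxc13 in 12.3% against 2.61% of H3R26C DMSO cells. The Hoxa2 and Hoxa7 shares lie close together. Hoxa10 is found in 14.8% against 12.9% of H3R26C DMSO cells and in 15.5% against 10.6% of H3R26C 5-Aza cells.

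In the H3R26C libraries HoxC levels also went with the cell cycle phase assigned from marker genes. In H3R26C DMSO, HoxC stood at 13 CPM in G1, 7.46 in S and 3.57 in G2M cells, and in H3R26C 5-Aza at 10.7, 6.11 and 6.53 CPM. The H3WT libraries had 1.41 to 2.62 CPM of HoxC in all phases. The HoxC level of G2M cells in H3R26C DMSO rests on 29 UMIs. In that library Hoxa2 had 14.1, 10.3 and 7.88 CPM in G1, S and G2M cells, and HoxA 125, 113 and 114 CPM. A lower level outside G1 was thus not particular to HoxC. G1 cells made up 87.4% of the cells with DMSO and 79.7% with 5-Aza in H3WT, and 79.1% and 68.3% in H3R26C. In G1 cells alone the log2 ratio of HoxC in H3R26C to H3WT was 3.03 with DMSO and 2.32 with 5-Aza, against 2.80 and 2.05 in all cells.

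The second question was what 5-Aza, given to start differentiation, did to the Hox clusters in each line. Among the HoxA genes, Hoxa9 and Hoxa2 showed the clearest differences shared by both lines, and in opposite directions. Hoxa9, a gene of posterior identity and of blood progenitors, had 38 UMIs in H3WT DMSO and 278 in H3WT 5-Aza, and 29 in H3R26C DMSO against 222 in H3R26C 5-Aza. These counts are 0.437 and 3.30 CPM in H3WT, a ratio of 7.53 (5.36 to 10.9), and 0.345 and 2.01 CPM in H3R26C, a ratio of 5.81 (3.94 to 8.88). Both 5-Aza libraries lay above both DMSO libraries. Its neighbours did not follow: Hoxa7 had ratios of 1.12 (1.09 to 1.16) in H3WT and 0.772 (0.745 to 0.80) in H3R26C, and Hoxa10 of 1.37 (1.25 to 1.5) and 1.04 (0.944 to 1.16). Hoxa2 was lower with 5-Aza in both lines, by ratios of 0.575 (0.524 to 0.631) and 0.559 (0.510 to 0.614), and stayed under the 2-fold size.

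By the rule of size, 1 of the 10 Hox genes, Hoxa9, was higher with 5-Aza in H3WT, where 4.38% of all genes were, and 0 were lower, where 0.272% of all genes were. In H3R26C again 1 of 10, Hoxa9, was higher, where 7.27% of all genes were, and 0 were lower, where 3.12% were. Hoxa9 was under 1 CPM in both DMSO libraries, so it reached the minimum only through the 5-Aza libraries, which favours this call. The median log2 difference over the 10 was 0.17 in H3WT and 0.02 in H3R26C, against 0.04 and -0.04 over all genes. In cells of H3R26C thinned to 5000 UMIs, in G1 cells and in Eln/Colec10 cells Hoxa9 kept its direction and no longer passed the rule.

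**Figure D5:**
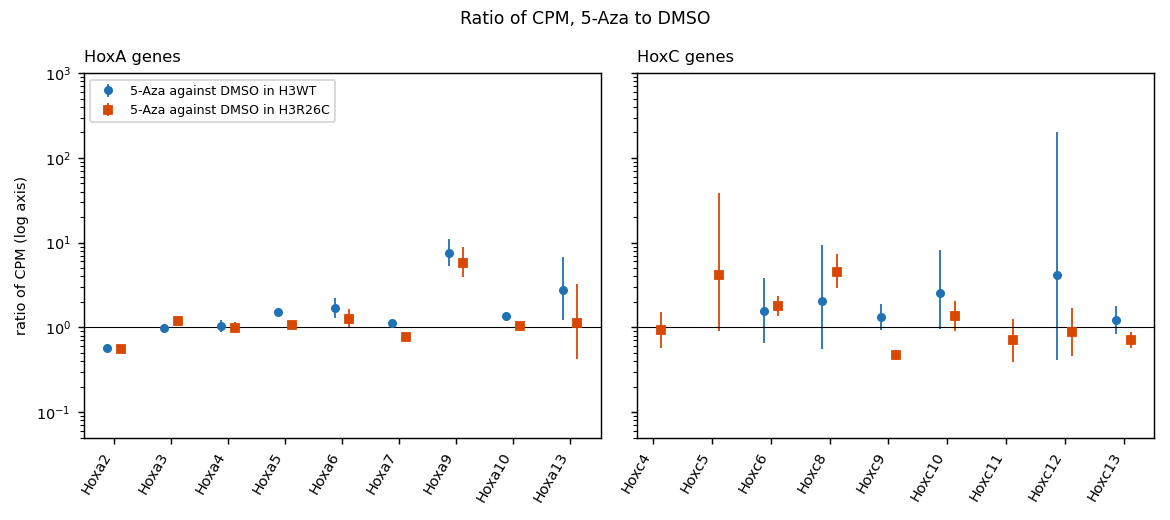
Ratio of CPM with 5-Aza to DMSO (vertical log axis) for HoxA genes (left) and HoxC genes (right) in H3WT (circles) and H3R26C (squares), with exact conditional 95% intervals and no point where both libraries had 3 UMIs or fewer. Hoxa9 stands at 7.53 and 5.81, Hoxa2 below 1 at 0.575 and 0.559, and Hoxc9 in H3R26C at 0.468.

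The Hoxa9 difference was seen in cells of several clusters in H3WT. In H3WT 5-Aza, Hoxa9 stood at 2.49 CPM in Eln/Colec10, 5.07 in Crabp1/Slpi, 4.19 in Igfbp5/F13a1, 4.25 in Tmem176b/Cdc20 and 4.85 in Hist1h2ae/Hist1h1b cells. In Eln/Colec10 cells, which both H3WT libraries held in number, the ratio of 5-Aza to DMSO was 5.07 (3.46 to 7.60). In H3WT the ratio was 21.6 (3.61 to 880) in Igfbp5/F13a1, on 32 and 1 UMIs. In Tmem176b/Cdc20 it was 15.0 (3.56 to 134), on 17 and 2 UMIs. In the Igfbp5/F13a1 cells of H3R26C it was 7.01 (2.45 to 24.5), on 16 and 5 UMIs. The other H3R26C ratios were not separated from 1 by counting error, at 2.92 (0.317 to 13.1) in Eln/Colec10 and 1.86 (0.424 to 11.1) in Gm26917/Neat1 cells. Of the 222 Hoxa9 UMIs of H3R26C 5-Aza, 161 lay in Crabp1/Slpi cells. H3R26C DMSO held only 30 cells of that cluster, so the ratio over all H3R26C cells rests largely on cells with few DMSO counterparts. Enpp2/Ly6e cells, where HoxC was highest, had Hoxa9 at 0.268 CPM. For Hoxa2 the ratio was 0.584 (0.522 to 0.653) within Eln/Colec10 cells of H3WT, 0.626 (0.459 to 0.841) within Igfbp5/F13a1 cells of H3R26C, and 1.04 (0.704 to 1.57) within Hist1h2ae/Hist1h1b cells of H3R26C, so the lower Hoxa2 level was not seen in every cluster.

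Hoxa7 in H3R26C 5-Aza was lower than in H3WT 5-Aza at a ratio of 0.682 (0.659 to 0.706), and within clusters at 0.743 (0.697 to 0.792) in Crabp1/Slpi and 0.623 (0.551 to 0.704) in Igfbp5/F13a1. In the skeletal muscle-like Mylpf/Acta1 cells the ratio was 0.940 (0.772 to 1.15), not separated from 1. Among the cell clusters of H3R26C 5-Aza, Hoxa7 was low in Gm26917/Neat1 at 23.6 CPM, a cluster led by nuclear RNAs with a median of 7967 UMIs, and in Ttn/Neb at 16.7 CPM. The skeletal muscle list, 13 of 13 markers in the counts, summed to 24.8 and 18.7 CPM in H3WT and H3R26C with DMSO and to 1625 and 2130 CPM with 5-Aza, with Myog, Myod1, Myh8 and Actn2 at 0 in H3R26C DMSO. The adipocyte list of 13 ran from 204 to 388 CPM, with Lep at 0 in both DMSO libraries and in H3R26C 5-Aza. Endothelial markers summed to at most 9.37 CPM and blood markers to at most 13.9 CPM. Without muscle-like and adipocyte-like cells the summed Hox log2 ratio of 5-Aza to DMSO in H3R26C was -0.18 in place of -0.22.

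HoxC genes did not respond to 5-Aza as 1 block in H3R26C. Hoxc9 was at 0.468 (0.407 to 0.539) and Hoxc13 at 0.712 (0.578 to 0.877) of the DMSO level, while Hoxc6 was at 1.77 (1.35 to 2.34) and Hoxc8 at 4.56 (2.92 to 7.43) times it. Without the Enpp2/Ly6e cells the log2 ratio of Hoxc8 was 1.18 in place of 2.19 and that of Hoxc9 was -1.39 in place of -1.09. Within clusters the Hoxc9 ratio was 0.395 (0.264 to 0.574) in Igfbp5/F13a1 and 0.876 (0.473 to 1.49) in Eln/Colec10 cells. The H3R26C cells lay in different clusters under the 2 treatments, with 44.6% in Eln/Colec10 with DMSO against 2.13% with 5-Aza, and 0.635% against 57.6% in Crabp1/Slpi. Summed, HoxC had a ratio of 0.804 (0.734 to 0.879) in H3R26C and 1.35 (1.08 to 1.70) in H3WT. In cells thinned to 5000 UMIs the log2 ratio in H3WT was 1.09 in place of 0.44. Single HoxC genes had at most 73 UMIs in an H3WT library, and their intervals were wide.

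Noncoding RNAs of the clusters were read beside the genes. Their values are in the order H3WT DMSO, H3WT 5-Aza, H3R26C DMSO and H3R26C 5-Aza. Hotairm1, at the 3′ end of the HoxA cluster on the other strand, stood at 23.6, 23.8, 22.6 and 34.3 CPM. Hoxaas2, which lies beside Hoxa2 and overlaps the 3′ end of Hoxa3, stood at 6.40, 3.90, 5.22 and 2.94 CPM. Hoxaas2 was thus lower with 5-Aza in both lines, as Hoxa2 was. Hotair, transcribed within HoxC, had 1, 9, 20 and 6 UMIs, and in H3R26C DMSO was found in 2.51% of cells with and 0.231% of cells without a Hoxc9 UMI. These 3 RNAs were named after their values were seen. Of the 17 other genes annotated inside the clusters, 4 reached 1 CPM, and 0 passed the size rule in any comparison. Over all genes, 1.82% to 7.27% were higher and 0.272% to 3.12% lower by comparison, so 0 of 4 is near these shares.

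Genes around and above the clusters showed few differences of this size. Of 24 genes flanking the clusters, 19 reached 1 CPM and 0 passed the size rule in any comparison. Beside HoxC, Smug1 and Cbx5 stood at 11.8 to 14.3 and 125 to 142 CPM on one flank. On the other, Calcoco1 and Atp5g2 stood at 44.8 to 83.7 and 801 to 1182 CPM. By comparison, 1.82% to 7.27% of all genes were higher and 0.272% to 3.12% lower. A count of 0 is near these shares for the 19 flanking genes. Their median log2 differences were 0.05 and -0.06 for 5-Aza in H3WT and H3R26C, and 0.08 and -0.04 for H3R26C against H3WT with DMSO and 5-Aza, close to the 0.04, -0.04, 0.03 and -0.03 of all genes. The 20 trithorax and Polycomb genes were all above 1 CPM, and 1 passed the rule, Cbx7, a chromodomain protein of Polycomb complexes, higher in H3R26C than in H3WT with DMSO at 6.19 against 2.42 CPM, where 1.82% of all genes were higher. The PRC2 genes Ezh2, Eed and Suz12 lay at 25.6 to 32.7, 22.0 to 30.9 and 40.4 to 48.2 CPM. Medians of the list in the same order were -0.13, -0.30, -0.05 and 0.00. Among 9 TALE genes, whose proteins bind DNA together with Hox proteins, 8 reached 1 CPM, and Pbx3 was higher with 5-Aza than with DMSO in H3R26C, at 11.1 against 4.81 CPM, where 7.27% of all genes were. The TALE medians were -0.15, -0.33, 0.09 and -0.13. Of 25 limb and positional genes 16 reached 1 CPM, with medians of 0.10, -0.12, 0.10 and -0.13. Msx1 was lower in H3R26C with 5-Aza at 12.7 against 29.1 CPM, where 3.12% of all genes were, and Tbx18 was lower in H3R26C than in H3WT with 5-Aza at 16.7 against 34.5 CPM, where 2.68% were. Lhx9 was higher with 5-Aza at 1.94 against 0.288 CPM in H3WT and 4.29 against 0.488 CPM in H3R26C, where 4.38% and 7.27% of all genes were. Prrx1, a marker of limb mesenchyme, was at 533 to 722 CPM, while the hindlimb genes Pitx1 and Tbx4 were under 1 CPM and the forelimb gene Tbx5 had no UMI. Evx1, Evx2, Cdx2 and Cdx4, relatives of the Hox genes, had no UMI in any library. Their relative Cdx1 had 17, 15, 16 and 6 UMIs in H3WT DMSO, H3WT 5-Aza, H3R26C DMSO and H3R26C 5-Aza. Of the genes in this paragraph, only Msx1 and Tbx18 met the rule for named genes, and the others were named after their values were seen.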

How the data were processed

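The authors deposited, for each of the 4 libraries, the UMI counts per gene and barcode made with Cell Ranger (version 6.1.0 per the file headers; mm10), unnormalized and before the study's cell filter. The Hox genes and the other gene lists were chosen with earlier results of these data known. Counts were summed over kept cells. Genes were named if their mean was at least 10 CPM, or at least 1 CPM and past 2-fold; of other lists, those past 2-fold with a mean of at least 10 CPM, up to 5 a list. Cells were clustered with Seurat 5.3.0 and sctransform 0.4.2 in R 4.3.3 (20 principal components, resolution 0.2), with cell cycle scores from 43 S and 54 G2M genes regressed and 2 Hox genes taken out of 3000 variable genes. Cell type names needed 3 markers. Doublets were not removed. An alternative left out the 5% of cells with most UMIs, which cannot tell doublets from single cells of high depth. Positions came from GENCODE M21. Some items are not reported here. Python 3.11.15, numpy 2.4.6, scipy 1.17.1, pandas 2.3.3 and matplotlib 3.10.9 were used. The size rule and the intervals were tried on counts simulated with Poisson error alone. That trial held no spread between cells or libraries, so it cannot say how they behave under such spread.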

Additional observations from a re-analysis of the deposited data

Results flagged for a closer look

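For 4 results the 5-Aza libraries stood on opposite sides of their DMSO libraries in the H3WT and H3R26C lines, with intervals of counting error that did not reach 0 on the log2 scale. With 1 library per condition, the difference between the lines was not tested. The log2 ratio of 5-Aza to DMSO for Hoxa7 was 0.17 in H3WT and -0.37 in H3R26C, and the HoxA genes together, of which Hoxa7 is the largest share, had 0.15 and -0.21. Summed HoxC genes had 0.44 and -0.32, and all Hox genes together 0.16 and -0.22. Hoxa7 is also part of the sum over all Hox genes. Without Hoxa7 that sum had 0.14 in H3WT and -0.06 (-0.11 to -0.004) in H3R26C.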

How the results depend on the processing

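No paired analysis was possible because a single library stands for every condition, and for the same reason leaving out replicates was not run. No result changed sign among those called. Of the values that answer a comparison, 192 stayed close to the reported one and 40 moved; of the single-gene values 573 stayed and 49 moved. The alternatives on summed HoxA and HoxC and on single genes, G1 cells alone, Eln/Colec10 cells alone and leaving out the Enpp2/Ly6e cells were chosen after seeing the data. The cause of each move was not tested unless the alternative's own construction shows it.

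An expression minimum of 10 CPM left only Hoxa2, Hoxa3, Hoxa5 and Hoxa7. These were not past 2-fold higher at the minimum of 1 CPM, so their count of 0 in all 4 comparisons was fixed in advance. Shares of all genes under the changed settings are not given here, so the counts below cannot be set beside them. With a pseudocount of 5 CPM the count of Hox genes past 2-fold higher was 0 in all 4 comparisons. For 5-Aza in H3R26C it was also 0 in thinned cells, G1 cells and Eln/Colec10 cells, and for H3R26C against H3WT with 5-Aza it was 0 in thinned cells and without Enpp2/Ly6e cells, and 3 (Hoxc6, Hoxc8 and Hoxc9) without a minimum. With DMSO it was 1 (Hoxc9) under median-of-ratios scaling. The count lower with 5-Aza in H3R26C was 1 (Hoxc9) with a pseudocount of 0.1 CPM or without Enpp2/Ly6e cells and 2 (Hoxa2 and Hoxc9) at a fold of 1.5, and in H3WT 1 (Hoxa2) at that fold.

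The summed Hox log2 ratio for 5-Aza in H3WT was 0.10 under median-of-ratios scaling and 0.22 in thinned cells. For 5-Aza in H3R26C it was -0.18 in G1 cells and without muscle-like and adipocyte-like cells, and -0.12 in Eln/Colec10 cells. For H3R26C against H3WT with DMSO it was 0.01 under median-of-ratios scaling, 0.11 in thinned cells, 0.10 in G1 cells and 0.09 in cells without Mki67 or Top2a UMIs; with 5-Aza it was -0.25 in G1, -0.21 in Eln/Colec10 and -0.27 in Mki67- and Top2a-free cells. The HoxC log2 ratio for 5-Aza in H3WT was 1.09 in thinned cells, and in H3R26C -0.64 without Enpp2/Ly6e cells. For H3R26C against H3WT it was, with DMSO, 3.31 in thinned cells, 3.34 in Eln/Colec10 cells and 3.09 in Mki67- and Top2a-free cells, and, with 5-Aza, 1.80 in thinned cells, 2.32 in G1 cells, 2.53 in Eln/Colec10 cells and 1.72 without Enpp2/Ly6e cells.

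Genes with few UMIs, such as most HoxB and HoxD genes, were limited by depth. By its exact upper limit, a count of 0 allows a level of up to 0.0333 to 0.0439 CPM, by library.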
